A study of Rattus norvegicus with 14 samples.

Results

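The metabotropic glutamate receptors are the G protein-coupled receptors for the transmitter glutamate. The members described here are Grm2, Grm3, Grm4, Grm5, Grm7 and Grm8, each taken with every probe set that the array's annotation gives to that gene alone, dim probe sets included. These 6 genes, of 10411 named on the array, had 8 probe sets: 1 each for Grm2, Grm3, Grm4, Grm5 and Grm7, and 3 for Grm8. RNA came from the dissected hippocampal CA3 region of young male Long-Evans rats, 3 to 4 months old, with arrays that the labels number as biological replicates. The learning group (7 arrays) swam 8 trials in an unfamiliar water maze with spatial cues and a visible platform in a constant place. The control group (7 arrays) swam as many trials with a visible platform that changed place and with no informative cues. All rats of both groups had been trained in a standard water maze 2 to 3 weeks earlier, had a 90 s probe trial 1 h after the last training trial and were killed directly after it. The comparison asks which CA3 transcripts differ after rapid encoding of a place, and since cues and platform movement changed together, their effects cannot be told apart.

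Groups I to III are distinguished among these receptors by sequence and coupling. Group I, here Grm5, couples through Gq to phospholipase C and calcium release, sits mainly beside postsynaptic densities and is tethered there by Homer proteins. Group II (Grm2 and Grm3) and group III (Grm4, Grm7 and Grm8) couple through Gi and Go, lower cyclic AMP and damp transmitter release. In the hippocampus Grm2 is best known from dentate granule cells and their mossy fibre terminals on CA3 cells, Grm3 from neurons and astrocytes, Grm5 from pyramidal cell dendrites, and Grm7 from presynaptic active zones. Grm4 is best known from cerebellar granule cells.

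Of the 8 probe sets, 3 passed the filter on dim probe sets and were tested: those of Grm3 and Grm7 and 1 of Grm8. The other 5, which hold all the signal available for Grm2, Grm4 and Grm5, had means below the 40th percentile of all but the control probe sets, a log2 level of 3.88, and are called dim. A dim level is not shown to be above background and does not show that a transcript is absent. None of the 3 tested probe sets was called between the groups (0 of 3 at an adjusted p under 0.05 in limma), against 3.35% of the 9520 probe sets tested. Without the filter 0 of all 8 were called, against 0.996% of 15866. At an unadjusted p under 0.05, 1 of the 3 was higher in the learning group, Grm7, as were 9.34% of all tested probe sets. In 0 of these 3 did the groups separate without overlap, against 2.10% of the tested probe sets, and in 0 of the 5 dim ones.

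The tissue label was checked against listed markers. The CA3 markers Bok (8.85 in learning and 8.84 in control arrays), Grik4 (7.94 and 7.95) and Spock1 (7.69 and 7.41, which rose with an adjusted p of 0.0257 in limma) were above the cutoff, and the 3 were all that the array held of 7. CA1 markers such as Wfs1 (8.71 in learning and 8.77 in control arrays) were above it too. Of 11 marker lists, the mean of pan-neuronal markers was higher in learning arrays (11.52 ± 0.03 and 11.45 ± 0.03, SD, n = 7 each; two-sided exact permutation p = 0.00175, adjusted p = 0.00962). Of its 6 genes on the array Nefl rose (0.24, adjusted p = 0.0333 in limma) and 5 were not called, with values from -0.14 for Eno2 to 0.20 for Rbfox3. That of the choroid plexus list was lower (6.85 ± 0.27 and 7.79 ± 0.56, from 6.48 to 7.30 and from 7.29 to 8.76; two-sided exact permutation p = 0.00117, adjusted p = 0.00962), with 3 of its 7 genes above the cutoff. Of these Ttr fell by 2.09 (adjusted p = 0.0124 in limma), while Igfbp2 (-0.70, adjusted p = 0.237) and Enpp2 (-0.03, adjusted p = 0.844) were not called, and the other 4 were dim. The other 9 lists did not pass (adjusted p from 0.358 to 0.866). Any pair of arrays correlated at 0.983 to 0.995 over the probe sets tested, and no pair was identical. The first principal component, 26.5% of the variance, separated the groups, with learning arrays from 3.48 to 14.10 and control arrays from -17.95 to -1.61. Learning replicates 4 and 6 and control replicate 5 lay farthest out on it. Since this axis separates the groups, leaving these 3 out tends to shrink group differences by construction. Control replicate 5 had the highest 3'/5' signal ratio of the Gapdh control probe sets, a measure of RNA integrity (0.64 on the log2 scale, against 0.38 to 0.51 in learning and 0.46 to 0.52 in the other control arrays). The balance of probe sets, the mean over 350 genes of the dimmest minus the brightest tested probe set, was -3.25 ± 0.03 in learning and -3.42 ± 0.11 in control arrays (SD, n = 7 each). The groups did not overlap, which gives the least p possible here (two-sided exact permutation, 5.83e-04; adjusted p = 0.00291 over 5 technical measures). The balance is built from tested probe sets and separates the groups. A fit with it as covariate therefore cannot tell its part from that of the group. The level of the spike-in controls was also higher in learning arrays (9.19 ± 0.17 and 8.99 ± 0.12, SD, n = 7 each; two-sided exact permutation p = 0.00524, adjusted p = 0.0131). The Gapdh ratio was 0.45 ± 0.05 in learning and 0.51 ± 0.06 in control arrays (two-sided exact permutation p = 0.0443, adjusted p = 0.0738), and the actin and hexokinase ratios did not pass. The part of the marker lists in the differences below was not tested.

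**Figure D1:**
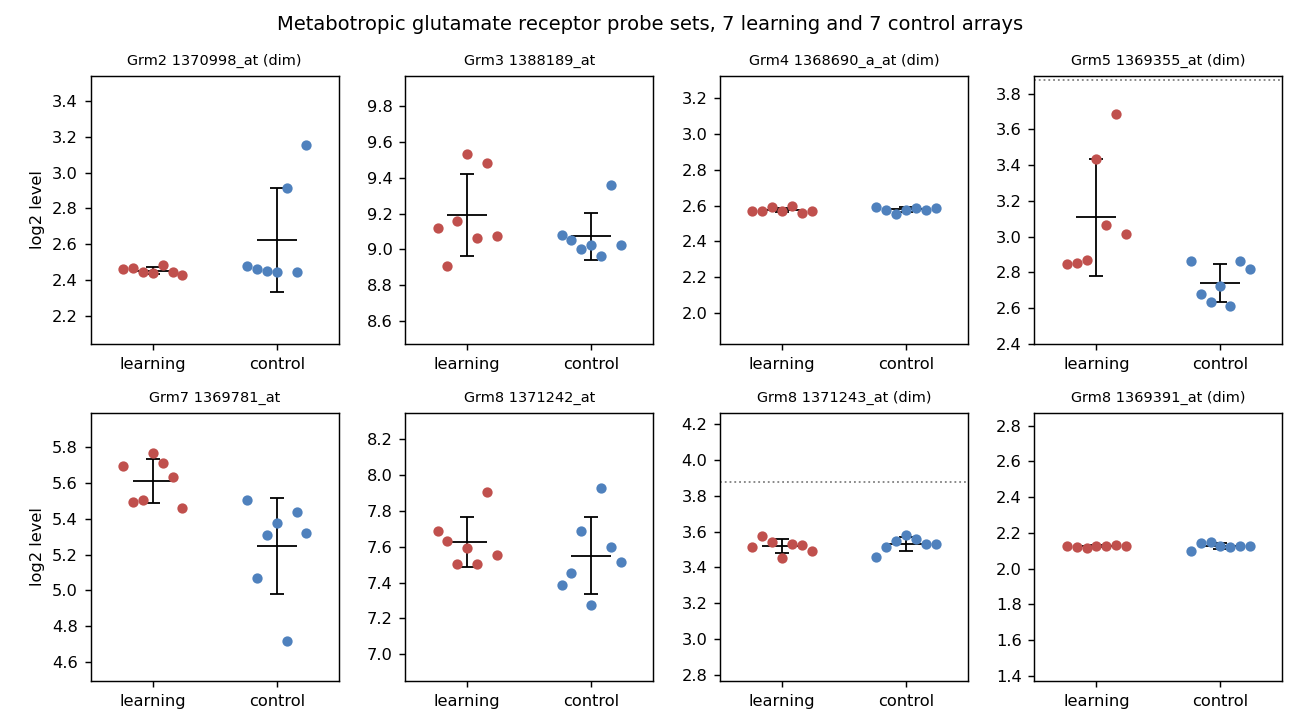
Log2 level of each receptor probe set (y axis, own range in each panel) in the 7 learning (left, red) and 7 control (right, blue) arrays; points are arrays in order of replicate number, bars are the mean and SD, and the dotted line is the dim cutoff of 3.88 where it falls in range. Grm7 and the dim Grm5 lie higher in most learning arrays, and the raised Grm2 values belong to 2 control arrays.

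Grm5, the group I receptor, was dim in every array, with no array of either group at or above the cutoff. Its log2 level ran from 2.85 through 3.01 to 3.69 in learning arrays, against 2.61, 2.72 and 2.86 in control arrays. All 7 learning arrays lay above the control mean and 5 of them above every control array. The means were 3.11 ± 0.33 in learning and 2.74 ± 0.11 in control arrays (SD, n = 7 each), a log2 difference of 0.37. The unadjusted p in the fit without a filter was 0.0119 (SE 0.13, adjusted p = 0.192 in limma), and the two-sided exact permutation p was 0.00466. The highest values were those of learning replicates 6 (3.69) and 4 (3.43), the learning arrays farthest out on the first principal component. Without those and control replicate 5 the difference was 0.16 (SE 0.06), and with the probe set balance as covariate it was 0.15. Differences of dim probe sets can be shrunk or shaped by the background model, so this one is given as a value.

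Grm2, the group II receptor known from mossy fibres, was dim, and its learning arrays were tightly grouped. Its log2 level ran from 2.43 through 2.45 to 2.48 in learning arrays, against 2.44, 2.46 and 3.16 in control arrays. Only control replicates 7 (3.16) and 5 (2.91) departed from the narrow band that held the other 12 arrays, and both stayed below the cutoff. The means were 2.45 ± 0.02 in learning and 2.62 ± 0.29 in control arrays (SD, n = 7 each), a log2 difference of -0.17 that did not pass (adjusted p = 0.555 in limma without a filter; two-sided exact permutation p = 0.156). Without control replicate 7 it was -0.08, and -0.05 in the fit that holds the balance of probe sets. The mean level of the dentate granule markers Prox1 and Calb1 was highest in these same arrays, 7.26 in control replicate 5 and 7.11 in control replicate 7. It lay between 6.42 and 7.02 in learning arrays and between 6.18 and 7.07 in the other control arrays. By group that level was 6.68 ± 0.25 in learning and 6.84 ± 0.41 in control arrays (SD, n = 7 each; two-sided exact permutation p = 0.406). Of the 10 listed dentate markers 5 were on the array and these 2 were above the cutoff. In tissue RNA, fewer cells of a type and less RNA per cell cannot be told apart. With the dentate marker level as covariate the Grm2 difference was -0.12 (SE 0.10). Control replicate 5 also had the highest Gapdh and hexokinase ratios and the lowest balance of probe sets of all arrays. Whether the marker level or these measures bear on its Grm2 level was not tested.

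**Figure D2:**
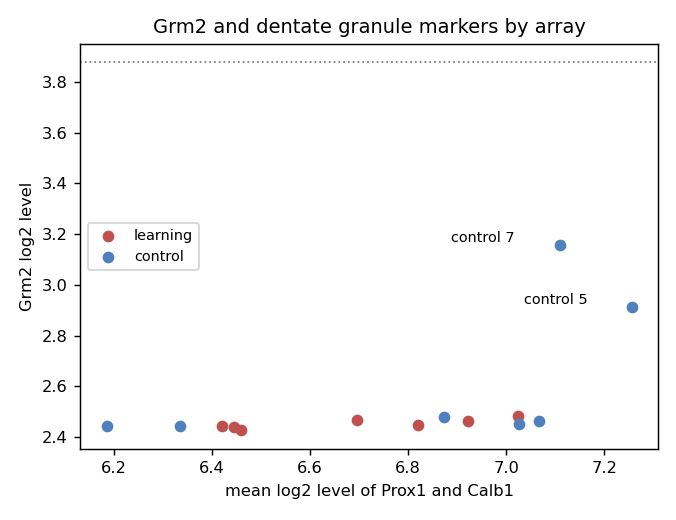
Grm2 log2 level (y axis) against the mean log2 level of the dentate granule markers Prox1 and Calb1 (x axis), 1 point per array, learning in red and control in blue, with the dim cutoff of 3.88 dotted. Control replicates 5 and 7, with Grm2 at 2.91 and 3.16, have the highest marker levels, while the arrays just below them on the x axis have no Grm2 level above 2.48.

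Grm3, a group II receptor of neurons and astrocytes, was well above the cutoff in all arrays. Its log2 level ran from 8.91 through 9.12 to 9.53 in learning arrays, against 8.96, 9.02 and 9.36 in control arrays. The ranges overlapped almost entirely, and the lowest value of all was that of a learning array, replicate 2. The means were 9.19 ± 0.23 in learning and 9.07 ± 0.13 in control arrays (SD, n = 7 each), a log2 difference of 0.12 (SE 0.09). The 1.09-fold difference had a 95% interval from 0.947 to 1.25 (adjusted p = 0.509 in limma; two-sided exact permutation p = 0.240). The values above 9.30 were those of learning replicates 4 (9.53) and 6 (9.48) and control replicate 6 (9.36). Without learning replicates 4 and 6 and control replicate 5 the sign turned, to -0.03 (SE 0.07, adjusted p = 0.906), and it also turned with the probe set balance as covariate, to -0.04 (SE 0.13, adjusted p = 0.953). The mean level of 9 astrocyte markers, Gfap and Gja1 among them, was 9.95 ± 0.05 in learning and 9.96 ± 0.08 in control arrays (SD, n = 7 each; two-sided exact permutation p = 0.791).

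Grm7, the group III receptor of presynaptic active zones, came nearest to a call. Its log2 level ran from 5.46 through a median of 5.63 to 5.77 in learning arrays, against 4.72, 5.32 and 5.50 in control arrays. All 7 learning arrays lay above the control mean and 5 of them above every control array. In the other direction 6 of the 7 control arrays lay below every learning array, so the overlap came from control replicate 1 (5.50), which lay just above learning replicates 2 (5.50) and 7 (5.46). The group means were 5.61 ± 0.12 in learning and 5.25 ± 0.27 in control arrays (SD, n = 7 each). That is a log2 difference of 0.36 (SE 0.10, 95% interval from 0.14 to 0.58), or 1.29-fold. The unadjusted p was 0.00322 in limma, and the two-sided exact permutation p was 0.00175 over the 3432 assignments of the arrays. Adjusted over all probe sets tested by Benjamini-Hochberg, the limma p was 0.0692, short of the threshold, and without the dim filter it was 0.139. Unadjusted p-values under 0.005 in the same direction were found for 3.92% of the tested probe sets.

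The lowest Grm7 level, 4.72, was that of control replicate 5, and the spread of the control group rests largely on this array. Without it the Grm7 difference was 0.27 (adjusted p = 0.0570 in limma). Adding the balance of probe sets to the fit left a Grm7 difference of 0.03 (SE 0.11, adjusted p = 0.949 in limma), with the Gapdh ratio it was 0.20 (SE 0.09, adjusted p = 0.367), and with the hexokinase ratio 0.25 (SE 0.07, adjusted p = 0.0691). Without the 3 arrays farthest out on the first principal component it was 0.24 (SE 0.08, adjusted p = 0.180). The part these measures have in the Grm7 difference was not tested beyond these fits. The balance separates the groups, so the fit with it cannot tell its part from that of the group.

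The promoters of Grm7 and Grm5 are shown because these members had the largest differences between the groups and their promoters differ in base composition. Both come from RefSeq on build GRCr8 and run from 250 bases before to 50 after the annotated start, on the + strand at chr4:145286476-145286775 and chr1:150733503-150733802. The table held 3 of the 6 members, these and Grm8. Capitals mark the GC box GGGCGG on either strand.
Grm7: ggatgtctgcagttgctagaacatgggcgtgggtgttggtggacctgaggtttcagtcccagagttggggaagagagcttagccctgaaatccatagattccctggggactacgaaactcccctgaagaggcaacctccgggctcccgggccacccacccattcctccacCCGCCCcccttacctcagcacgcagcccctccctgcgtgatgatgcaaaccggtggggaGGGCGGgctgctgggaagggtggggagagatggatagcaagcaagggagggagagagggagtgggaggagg
Grm5: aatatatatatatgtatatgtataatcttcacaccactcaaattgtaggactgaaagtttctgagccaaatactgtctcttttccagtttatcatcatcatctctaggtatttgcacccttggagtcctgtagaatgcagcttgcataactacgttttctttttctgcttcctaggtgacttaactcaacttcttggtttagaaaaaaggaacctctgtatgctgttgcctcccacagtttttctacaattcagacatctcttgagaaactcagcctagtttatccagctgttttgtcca
The Grm7 window had 62.0% G and C and 2 GC boxes that do not overlap each other. The Grm5 window had 37.3% and 0 GC boxes, and the Grm8 window 47.3% and 0. A GC box was present in 33.1% of 33469 promoter windows of this length, whose median G and C content was 51.7%. The cyclic AMP response element, letters TGACGTCA, and its half-site TGACG, searched on both strands, matched 0 times in the 3 windows. Of all windows 1.83% held the element and 21.2% the half-site. The TATA box TATAAA and the CCAAT box also matched 0 times in the 3, against 14.2% and 37.5% of all windows. Each of the 3 held 1 E-box, CANNTG, which 72.1% of windows hold. These matches describe letters in a window only.

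Grm8, a group III receptor, had 1 bright and 2 dim probe sets. At the bright one the log2 level ran from 7.50 through 7.59 to 7.91 in learning arrays, against 7.27, 7.52 and 7.93 in control arrays. No learning array lay above the control range, and the highest level of all 14 was that of control replicate 5. The means were 7.63 ± 0.14 in learning and 7.55 ± 0.22 in control arrays (SD, n = 7 each). The log2 difference of 0.08 (SE 0.09), 1.05-fold with a 95% interval from 0.923 to 1.21, did not pass (adjusted p = 0.691 in limma; two-sided exact permutation p = 0.446). With the probe set balance as covariate it was 0.30 (SE 0.11, adjusted p = 0.489), with the hexokinase 3'/5' ratio 0.16 (SE 0.07, adjusted p = 0.253) and with the Gapdh ratio 0.19 (SE 0.09, adjusted p = 0.369). In these fits the Grm8 difference was larger, whereas that of Grm7 was smaller.

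The 2 dim Grm8 probe sets hardly varied. At the less dim of them levels lay between 3.45 and 3.57 in learning arrays, against 3.46 and 3.58 in control arrays, a log2 difference of -0.01. At the dimmest they lay between 2.11 and 2.13 in learning arrays, against 2.10 and 2.15 in control arrays, a log2 difference of -0.0025. Set against each other within arrays, the 3 Grm8 probe sets gave 3 pairs, whose group differences lay between -0.01 and 0.09 (lowest two-sided exact permutation p = 0.367, adjusted p = 0.628 over the 3). A dim probe set bears little on whether the bright one is representative.

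Grm4, the group III receptor of cerebellar granule cells, was dim and flat. Its log2 level was 2.56 to 2.59 in learning arrays, against 2.56 to 2.59 in control arrays. The difference was -0.0030, with an adjusted p of 0.929 in limma without a filter. At these levels an array cannot show whether the transcript differed.

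**Figure D3:**
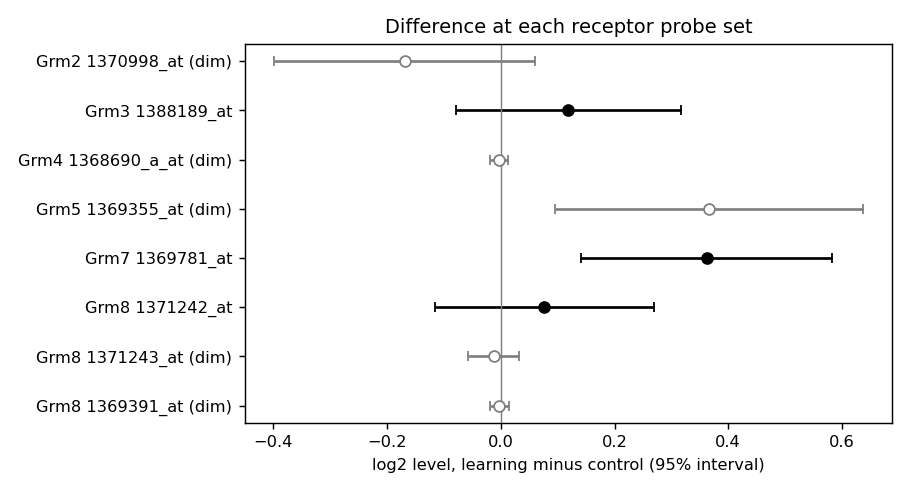
Log2 level in learning minus control arrays (x axis) for each receptor probe set, with 95% intervals from limma; filled points were tested after the dim filter and open grey points are dim, with intervals from the fit without it. The intervals of Grm7 and of the dim Grm5 lie above 0 before adjustment over all probe sets, and the others include 0.

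Whether the members differed from each other in their response was tested within arrays, over the 3 pairs of members with a tested probe set. The level of Grm3 minus that of Grm7 was 3.58 ± 0.19 in learning and 3.82 ± 0.24 in control arrays (SD, n = 7 each), a difference of -0.24 (two-sided exact permutation p = 0.0519, adjusted p = 0.156 over the 3 pairs). Grm8 minus Grm7 gave 2.02 ± 0.17 in learning and 2.30 ± 0.45 in control arrays, a difference of -0.29 (two-sided exact permutation p = 0.118, adjusted p = 0.177). Grm3 minus Grm8 differed by 0.04 (two-sided exact permutation p = 0.752, adjusted p = 0.752). No pair passed, so the larger Grm7 difference was not shown to set it apart from Grm3 or Grm8. Levels of different probe sets are not compared here, since their probes differ in affinity.

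**Figure D4:**
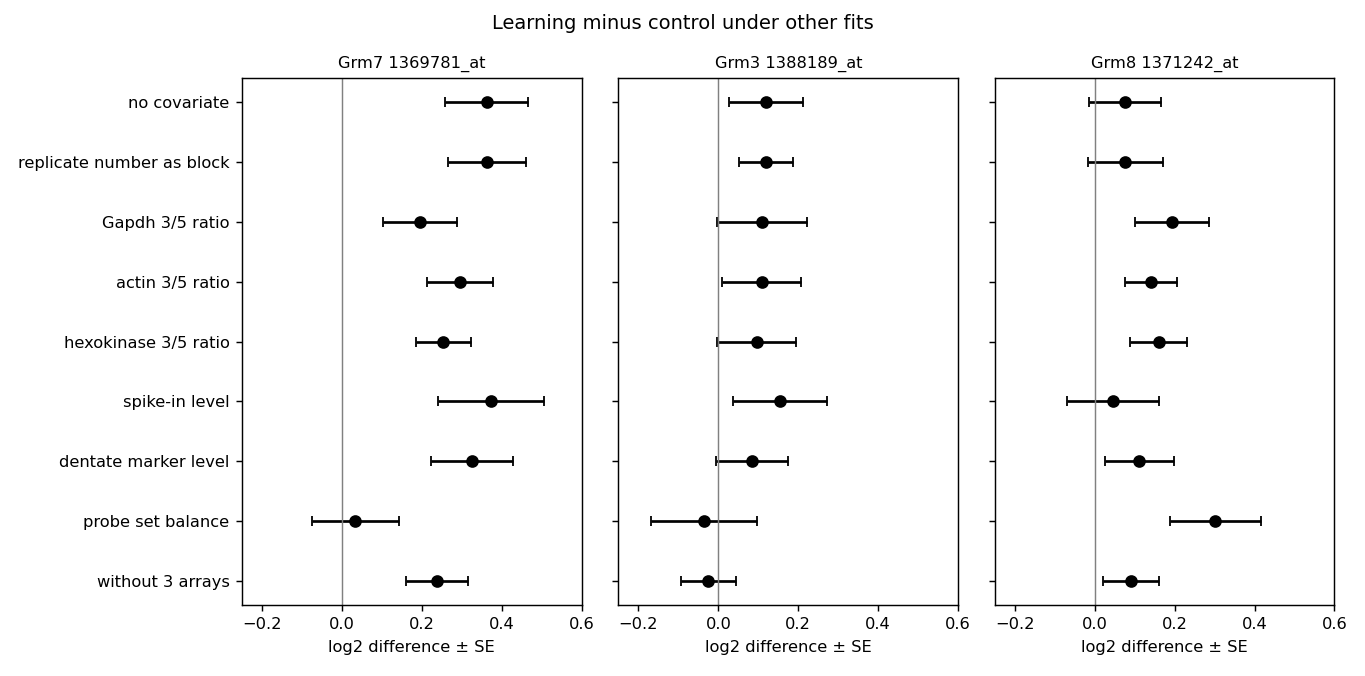
Log2 difference, learning minus control, with its SE (x axis) for the tested probe sets of Grm7, Grm3 and Grm8 in fits with no covariate, with the replicate number as block, with each named covariate and without 3 arrays (learning replicates 4 and 6, control replicate 5). With the probe set balance as covariate Grm7 stands at 0.03, Grm3 at -0.04 and Grm8 at 0.30.

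Genes downstream of group I receptors that were called all rose. Most called genes of the array did so too, 199 higher and 68 lower at some tested probe set. Of 21 listed effectors 10 were tested, and 3 rose at some tested probe set while 7 were not called. Over all 6836 tested genes 3.91% were called at some tested probe set in either direction. At the brightest probe set 2 of these 10 effectors were called, against 2.57% of all tested genes. Plcb1, the phospholipase C isoform that Gq drives, rose at its brightest probe set (9.43 ± 0.06 in learning and 9.25 ± 0.08 in control arrays, SD, n = 7 each; log2 difference 0.18, SE 0.04, adjusted p = 0.0302 in limma). Prkca, a protein kinase C isoform, rose 1.64-fold (log2 difference 0.72, SE 0.15, adjusted p = 0.0209). Homer1, whose long forms link Grm5 to calcium stores and whose short form uncouples it, had 5 tested probe sets with unlike differences. At the probe set that was called it rose to 8.12 ± 0.22 in learning arrays, against 7.45 ± 0.24 in control arrays (SD, n = 7 each; log2 difference 0.67, SE 0.11, adjusted p = 0.00593). The other 4 had 0.46, 0.11, 0.02 and -0.22, and the brightest of them, at 0.11, had an adjusted p of 0.339. Which Homer1 form each probe set measures is not given in the sources used here. The brightest genes of the list, Prkcb (0.02) and the calcium store channel Itpr1 (-0.09), were not called.

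The called genes that act behind group II and III receptors also rose. Of 24 listed 18 were tested, 4 rose at some tested probe set and 14 were not called. Over all tested genes 3.91% were called at some tested probe set in either direction. Of the 4 that rose, 3 were called at their brightest probe set. Gnao1 and Gnai1 encode the G protein alpha subunits of the Go and Gi classes. Gnao1 rose to 8.75 ± 0.19 in learning arrays, against 8.21 ± 0.25 in control arrays (SD, n = 7 each; log2 difference 0.54, SE 0.11, adjusted p = 0.0166 in limma). Gnai1 rose 1.33-fold (log2 difference 0.41, SE 0.09, adjusted p = 0.0201). Cacna1a, the P/Q-type calcium channel of release sites that these receptors inhibit, rose 1.60-fold at its brightest probe set (log2 difference 0.68, SE 0.13, adjusted p = 0.0140). The dimmer Cacna1a probe set had 0.10 and was not called (adjusted p = 0.195). Kcnj3, a subunit of the potassium channel that G protein beta-gamma subunits open, rose at the dimmer of its probe sets (0.28, SE 0.07, adjusted p = 0.0466). At its brightest it had 0.28 as well, which was not called (adjusted p = 0.186). The brightest genes, Gnb1 (0.0022) and Gng3 (-0.0023), were not called. Nor were the tested adenylyl cyclases Adcy2 (-0.12), Adcy3 (-0.01), Adcy5 (-0.20) and Adcy6 (0.05).

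No regulator or binding partner of the receptors was called, where 3.91% of all tested genes were called at some tested probe set. Of 29 listed 20 were tested and 0 passed in limma. At an unadjusted p under 0.05 the calmodulin gene Calm2 (0.11, adjusted p = 0.0941), the scaffold Shank2 (0.13, adjusted p = 0.145) and Rgs8 (0.38, adjusted p = 0.237) were higher. So were 9.34% of all tested probe sets at that unadjusted threshold. Ncdn, which encodes the Grm5-binding protein norbin, had 0.0082. Pick1, whose PDZ domain binds the tail of Grm7, had -0.08 (adjusted p = 0.467). Of 17 genes of receptor-dependent synaptic depression and translation 13 were tested. Against 3.91% of all tested genes called at some tested probe set, 1 rose. This was Map1b, a microtubule protein translated on group I activation. It was called at the dimmer of its probe sets (1.06, SE 0.21, adjusted p = 0.0165), with 0.07 at its brightest (adjusted p = 0.363). Arc (0.03), Fmr1 (-0.04), Nptx1 (0.03) and Cyfip2 (0.08) were not called.

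The ionotropic receptors, the ion channels opened by glutamate, had 9 of 18 listed genes tested. In limma 3 rose at some probe set, Gria1 (log2 difference 0.66, adjusted p = 0.00323), Gria3 (1.19 at its dimmer probe set, adjusted p = 0.00248) and Grin2a (1.47, adjusted p = 0.00323). The brightest Gria3 probe set had 0.05 (adjusted p = 0.646) and the dimmer Grin2a probe set 0.23 (adjusted p = 0.102). The control mean of the called Grin2a probe set was 3.88, at the level of the dim cutoff. The other 6 genes were not called, with -0.0082 for Grin1 and 0.08 for Gria2. Over all tested genes 3.91% were called at some tested probe set. Whether ionotropic genes were called more often than metabotropic ones was not tested. At their brightest probe sets the median log2 difference was 0.13 for group I effectors, 0.01 for group II and III effectors, 0.04 for regulators, 0.03 for depression and translation genes and -0.01 for ionotropic receptors. It was -0.03 over all tested genes, of which 2.57% were called there. With the probe set balance as covariate 0 genes of any of these lists were called, and no probe set of the array was. Since the balance separates the groups without overlap, a loss of calls in that fit follows in part from that separation, whatever its cause. Without learning replicates 4 and 6 and control replicate 5 the numbers called were 1 for group I effectors, 1 for group II and III effectors, 0 for depression and translation genes and 3 for ionotropic receptors.

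**Figure D5:**
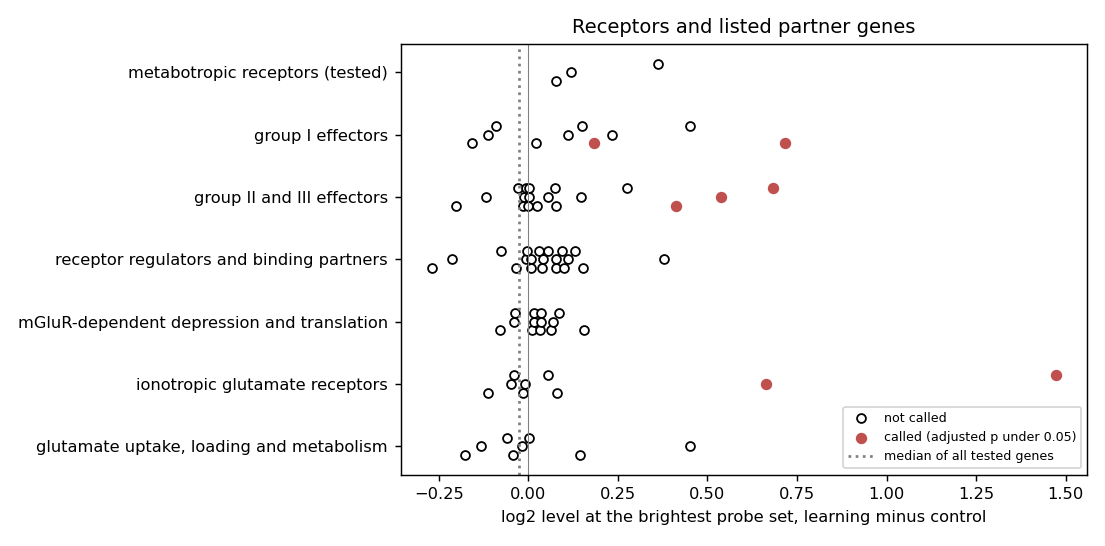
Log2 level in learning minus control arrays (x axis) at the brightest tested probe set of each gene, for the tested metabotropic receptors and the listed genes; filled red points were called in limma and the dotted line is the median of all tested genes, -0.03. The 3 metabotropic receptors lie between 0.08 and 0.36, all uncalled, while group I and group II and III effectors include called genes up to 0.72.

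Some genes tracked a member closely across arrays within the groups. Over the 14 arrays, after each group's mean was removed, Grm7 was most like Amph, which encodes amphiphysin of vesicle endocytosis (Pearson r = 0.93), the histone demethylase gene Kdm6b (r = 0.93) and LOC100909739 (r = 0.91). Without the 2 arrays of most extreme Grm7 level these were 0.83, 0.77 and 0.74 over 12 arrays. The mean level of LOC100909739 was 3.89 in learning and 3.89 in control arrays, at the level of the dim cutoff of 3.88. Grm3 was most like the BMP receptor gene Bmpr2 (r = 0.90), the actin nucleator gene Spire1 (r = 0.90) and Gad2, the GABA-synthesising enzyme gene (r = 0.88). Grm8 was most like the chromatin remodelling gene Smarcd2 (r = 0.89), the claudin gene Cldn12 (r = 0.88) and the uridine kinase gene Uck1 (r = 0.86). Without the 2 most extreme arrays of each member these were 0.75, 0.84 and 0.75 for Grm3 and 0.85, 0.70 and 0.77 for Grm8. Between 54 and 77 genes per member had an r above 0.7. Those named are the highest of 6835 genes compared for each member. The part of the technical measures in these correlations was not tested, and the correlations are descriptions with no test.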

How the data were processed

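RNA of 14 samples, 7 per group by sample title, was hybridised to Affymetrix RAE230A arrays per the labels' protocols. The deposited values are log2 levels of 15923 probe sets made with GCRMA, per the submitters' processing notes. The sources used here do not give its version or settings. The log2 scale is read from the range of the values. GCRMA corrects background by probe sequence, which can compress differences of dim probe sets. Genes came from GEO's platform annotation, 12789 probe sets with 1 gene and 312 with several, which stayed unnamed. Symbols were updated by Entrez ID for 12754.

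The 57 control probe sets and 6346 dim ones were left out, and 9520 were fitted with limma 3.58.1 in R 4.3.3 (lmFit and eBayes, learning minus control), adjusted by Benjamini-Hochberg and called at an adjusted p under 0.05. The working of the fit was checked on simulated independent normal values. These hold no differences shared across the probe sets of an array, so the check does not bear on calls where such differences exist. Single values were compared by two-sided exact permutation tests. The labels call the samples biological replicates, and precision is limited by their number. Alternatives covered filters, normalization, variance moderation, covariates, the replicate block, probe sets per gene and left-out arrays. The first principal component and actin alternatives were added after the data were seen. Members, lists and tests were chosen with earlier results of these data known. All member probe sets are named, and from each list called genes, the 2 of lowest p and the 2 brightest. Other listed genes were named after their values were seen.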

Additional observations from a re-analysis of the deposited data

Results flagged for a closer look

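A group was examined for an array whose distance to its nearest neighbour was large against the group's range (Dixon's criterion), in 48 groups of 7 values. In all 6 values stood out, where chance gives about 1 in 20 groups if groups are independent. The 48 groups reuse the same 14 arrays, so that rate cannot be held against the 6. For Grm3 the value that stood out was that of control replicate 6, at a log2 level of 9.36 with the next highest control array at 9.08. Control replicate 5 stood out in the Gapdh 3'/5' ratio (0.64, the next 0.52), the hexokinase 3'/5' ratio (2.57, the next 1.61) and the probe set balance (-3.65, the next -3.44). Control replicate 6 also had the lowest spike-in level (8.73, the next 8.94). Learning replicate 4 had the highest mean of GABAergic interneuron markers (6.87, the next 6.60).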

How the results depend on the processing

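Over 31 alternatives the number of metabotropic receptor probe sets called stayed at 0. Over the 30 that tested it, Grm7 kept its sign, with differences from 0.03 to 0.40 and adjusted p from 0.0570 to 0.949 in limma. With each array left out in turn it ran from 0.27 to 0.40 (adjusted p 0.0570 to 0.132). Grm8 at its bright probe set ran from 0.03 to 0.30. Grm3 turned to -0.0371 with the probe set balance as covariate and to -0.0254 without the 3 arrays farthest on the first principal component. Grm3 minus Grm8 turned to -0.12 without those 3, and ran from -0.0390 to 0.0912 with single arrays left out, turning without control replicate 5 or learning replicate 4. The 2 dim Grm8 probe sets differed from each other by -0.0198 to 0.0014 with single arrays left out. The 3 arrays lie farthest out on an axis that separates the groups, so smaller differences without them follow in part from that choice. The balance separates the groups too, so fits with it cannot tell its part from that of the group. The other causes were not tested.

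Called genes of group I effectors were 3, but 0 with the balance covariate and 1 without the 3 arrays. Those of group II and III effectors were 4, but 2 with no filter, 2 with a filter at the 60th percentile, 0 with the balance covariate and 1 without the 3 arrays. Depression and translation genes were 1, but 0 with the balance covariate and 0 without the 3 arrays. Ionotropic receptors were 3, but 1 with the 60th percentile filter and 0 with the balance covariate. Glutamate uptake genes were 1, but 2 with the 60th percentile filter and 0 with no filter, the dentate or balance covariate or without the 3 arrays. Over the whole array 319 probe sets were called, but 0 with the balance as covariate, 39 with the Gapdh ratio, 143 with the spike-in level, 163 with the dentate level, 177 with the hexokinase ratio, 158 without a filter, and 105 without the 3 arrays. Single arrays left out gave 163 to 352, with under 200 without control replicates 1, 2 or 3 or learning replicates 3, 4, 6 or 7.

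Same-numbered samples were not found to be paired: 2 of 7 pairs had correlated deviations over 0.1, and 3 of 14 arrays correlated best with their own number. With the replicate block Grm7 had an adjusted p of 0.0909 and 313 probe sets were called. Grm2, Grm4 and Grm5 were dim, although Grm5 passed a filter at the 20th percentile (adjusted p = 0.140), so their differences are limited by signal over background.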

Other observations

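Grm6, the group III receptor of retinal bipolar cells, is not among the members. Its 3 probe sets were dim, with no array above 2.29 on the log2 scale, and differed by at most 0.0046 in either direction.

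Of 13 listed genes of glutamate uptake, vesicle loading and metabolism 8 were tested. Of these 1 was called, against 3.91% of all tested genes called at some tested probe set. The astrocytic transporter gene Slc1a3 rose at 1 of its dimmer probe sets (9.89 ± 0.21 in learning and 9.48 ± 0.19 in control arrays, SD, n = 7 each; log2 difference 0.41, SE 0.10, adjusted p = 0.0381 in limma) and had -0.06 at its brightest (adjusted p = 0.605). The other 7 were not called, with 0.39 for the neuronal transporter gene Slc1a1 at its dimmer probe set (adjusted p = 0.0687) and 0.0030 at its brightest, 0.45 for Slc1a2 (adjusted p = 0.0858), -0.13 for Glud1 (adjusted p = 0.142), 0.14 for the vesicular transporter gene Slc17a7 and -0.02 for Glul. The list's median at the brightest probe sets was -0.03, as over all tested genes.

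Among the members control replicate 5 had the lowest level of all 14 arrays for Grm7 (4.72) and for the dim Grm5 (2.61), the highest for Grm8 at its bright probe set (7.93) and a Grm2 level (2.91) exceeded only by control replicate 7.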
